A study of Mus musculus with 16 samples.

Results

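RNA was sequenced from cultured mouse astrocytes, and 9 genes of astrocyte endfeet, gap junctions and potassium buffering were followed: Aqp4, Gja1, Gjb2, Gjb6, Kcnj10, Mlc1, Hepacam, Dag1 and Atp1b2. They were taken by symbol from the deposited log2 CPM table (library-size scaled counts, CPM, on a log2 scale), in which 9 of the 9 were found among 16707 genes. All 9 also passed the filter on low counts and were among the 16062 genes tested.

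The cells came from brains of postnatal day 6 pups of WT (C57BL/6J) or Nlrx1-/- mice, with 4 litters of each genotype. NLRX1 is a mitochondrial innate immune receptor. Astrocytes were pulled out with beads against ACSA2 and grown for about 10 days without serum in the presence of heparin-binding EGF. Each replicate is therefore cells of a litter kept in culture rather than tissue. From each litter 1 well received vehicle (water) and 1 well LPS at 500 ng/mL with IFNγ at 10 ng/mL, both for 24 h, which gave 4 groups of 4 libraries and 16 libraries in all. The questions are how LPS+IFNγ moved these genes in each genotype, whether the move differed between genotypes, and whether Nlrx1-/- and WT cells differed under each treatment.

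As background, astrocyte endfeet wrap brain vessels and carry a dense membrane domain. Aquaporin 4 and the inward rectifier Kir4.1 sit there, tied to laminin in the vessel's basement membrane through the dystrophin complex and dystroglycan. Gap junctions built of connexins join astrocytes into a network that spreads potassium and metabolites. MLC1 and its adhesion partner GlialCAM are found at endfeet and at astrocyte contacts and are linked to cell volume control and chloride channel function. The sodium pump with its β2 subunit clears potassium, and the ACSA2 antibody used to select the cells is known to bind this subunit, the product of Atp1b2.

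Read pairs assigned to transcripts ran from 27259420 to 43752903 per library (median 35554625). Nlrx1 held 503 to 804 reads in the vehicle wells of WT litters and 474 to 692 in their treated wells, against 131 to 311.5 and 76 to 161 in those of Nlrx1-/- litters. Each Nlrx1-/- library lay below each WT library, at a fitted 30.7% of WT in vehicle (edgeR adjusted p = 0.0538) and 21.9% with LPS+IFNγ (adjusted p = 0.00317), and reads remained in all of them. The 12 astrocyte markers were present in every library, summing to 7144 to 9768 TPM (reads scaled for transcript length and library size). Of the 14 microglia and macrophage markers, the defining genes Aif1, Cx3cr1, Itgam, Tmem119 and Ptprc stayed at or under 0.501 TPM in every library. The 10 oligodendrocyte markers summed to 549 to 874 TPM in the vehicle wells of WT litters and 305 to 603 in their treated wells, and to 216 to 709 and 148 to 366 TPM in those of Nlrx1-/- litters, Mog and Opalin being near 0 throughout. The 8 markers of oligodendrocyte precursors, led by Olig1, summed to 1580 to 3244 TPM, higher in the vehicle than in the LPS+IFNγ well of each litter. In bulk RNA, fewer cells of a type and less RNA per cell cannot be told apart.

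Levels of different genes were compared only as TPM. In WT vehicle cells Mlc1 stood highest at 976 ± 103 TPM (SD, n = 4), and its range did not meet that of the next gene, Atp1b2, at 624 ± 64.4 TPM. Gja1 followed at 534 ± 178, Aqp4 at 508 ± 86.9, Hepacam at 415 ± 18.1, Dag1 at 300 ± 9.25 and Kcnj10 at 260 ± 26.6 TPM (each SD, n = 4). The ranges of Atp1b2, Gja1, Aqp4 and Hepacam met in that order, so these neighbours were not separated, whereas Hepacam, Dag1 and Kcnj10 were apart from each other. Gjb2 and Gjb6 were far lower, at 1.69 ± 0.789 and 1.01 ± 0.405 TPM, and rested on 33 to 111 and 19 to 48 reads per library. Mlc1 stayed highest in all 4 groups, with 575 ± 79.5 TPM in treated WT cells and, in Nlrx1-/- cells, 898 ± 53.4 TPM under vehicle and 417 ± 54.5 TPM under LPS+IFNγ. In WT cells Dag1 moved from place 6 under vehicle to place 2 under LPS+IFNγ, and Gja1 from place 3 to place 6. Within Nlrx1-/- cells Dag1 moved from place 4 to place 2 and Gja1 from place 6 to place 7. Ranges of Gja1 and its neighbour Aqp4 met in all 4 groups, and those of Dag1 and Atp1b2 met in treated WT cells. In Nlrx1-/- vehicle cells the ranges of Atp1b2, Hepacam, Dag1, Aqp4, Gja1 and Kcnj10 met in that order. The vehicle places of Dag1 and Gja1 in Nlrx1-/- cells were therefore not separated from those of their neighbours.

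**Figure D1:**
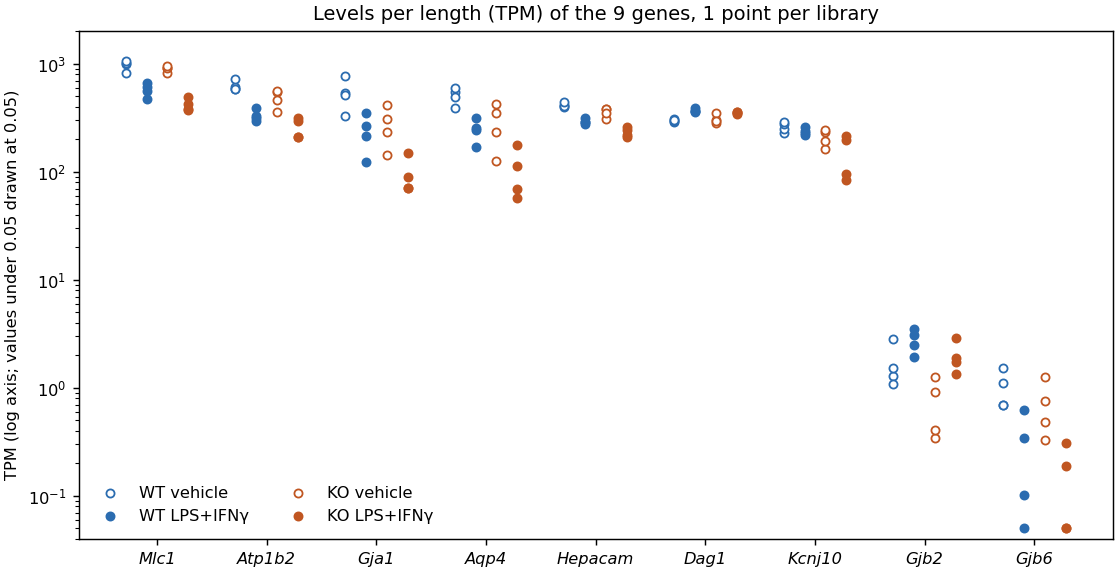
TPM of the 9 genes on a log axis, 1 point per library, with WT in blue and Nlrx1-/- (KO) in orange, open for vehicle and filled for LPS+IFNγ, and genes ordered by their WT vehicle mean. Mlc1 is highest in each group, the 7 abundant genes lie between 57.3 and 1065 TPM, and Gjb2 and Gjb6 lie at 3.51 TPM or less.

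The connexins split between an abundant and a barely detected class. Gja1 encodes Cx43, the main astrocyte connexin, and Gjb6 and Gjb2 encode Cx30 and Cx26, the other connexins described in astrocytes. In GRCm39 with the GENCODE M39 annotation, Gja1 lies at chr10:56253241-56278609 on the plus strand. Gjb2 (chr14:57335919-57342240) and Gjb6 (chr14:57360757-57371087) are neighbours on the minus strand, 18517 bases apart. Because Gjb2 and Gjb6 sit side by side and moved in opposite directions, while Gja1 moved with Gjb6, their promoters follow: 250 bases before and 50 after the RefSeq start, from a table on GRCm38.p6, matched to GRCm39 and written 5′ to 3′ on the gene's strand. Both strands were searched for the GAS motif (TTCNNNGAA), the interferon element ISRE, the AP-1 site (TGANTCA) and the kappaB site, none of which overlapped another in these windows. Capitals mark a match.
Gja1, chr10:56253146-56253445, plus strand: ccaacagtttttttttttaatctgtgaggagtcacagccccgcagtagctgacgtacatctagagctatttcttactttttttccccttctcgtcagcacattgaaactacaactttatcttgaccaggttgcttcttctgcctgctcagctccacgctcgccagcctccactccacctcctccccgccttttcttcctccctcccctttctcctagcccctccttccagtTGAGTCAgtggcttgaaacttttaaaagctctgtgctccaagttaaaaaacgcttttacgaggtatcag
Gjb2, chr14:57342110-57342409, minus strand: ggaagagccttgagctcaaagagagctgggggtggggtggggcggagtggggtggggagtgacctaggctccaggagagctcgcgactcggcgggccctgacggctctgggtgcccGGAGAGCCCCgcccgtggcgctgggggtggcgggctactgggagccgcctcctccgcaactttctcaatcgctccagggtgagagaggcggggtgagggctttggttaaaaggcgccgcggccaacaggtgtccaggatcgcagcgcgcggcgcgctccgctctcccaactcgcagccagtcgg
Gjb6, chr14:57371019-57371318, minus strand: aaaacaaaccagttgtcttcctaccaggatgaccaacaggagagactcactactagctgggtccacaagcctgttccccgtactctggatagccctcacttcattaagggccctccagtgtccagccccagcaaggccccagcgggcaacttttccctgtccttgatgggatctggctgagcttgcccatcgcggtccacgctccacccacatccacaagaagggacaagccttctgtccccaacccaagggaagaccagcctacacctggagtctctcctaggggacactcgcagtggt
The Gja1 window held 1 AP-1 match, with its first base at position -19 from the start, and the Gjb2 window 1 kappaB match on the opposite strand from position -134. The Gjb6 window held none of the 4 motifs. Of 32851 mouse promoter windows of the same length, 7.81% held the AP-1 motif, 8.46% kappaB, 8.30% GAS and 3.44% ISRE, so these matches are descriptions of the letters and not sites of binding. The windows of Kcnj10, Hepacam, Mlc1 and both listed starts of Dag1 held 0 matches to the 4 motifs.

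LPS+IFNγ lowered most of the 9 genes in WT cells. In edgeR's quasi-likelihood test with litter as a block, 6 fell (Aqp4, Gja1, Gjb6, Mlc1, Hepacam and Atp1b2), 2 rose (Gjb2 and Dag1) and Kcnj10 did not pass. Over all genes tested 20.2% were called lower and 23.7% higher. The median log2 fold change was -0.56 over the 9 and -0.02 over all genes tested. In Nlrx1-/- cells 7 fell, the same 6 with Kcnj10, and the same 2 rose, where 24.2% of all genes were called lower and 25.3% higher. There the median was -0.74 over the 9 and -0.03 over all genes. On the deposited log2 CPM, 6 of the 9 fell and 2 rose in all 8 litters, against 20.7% and 23.2% of the 16707 genes.

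**Figure D2:**
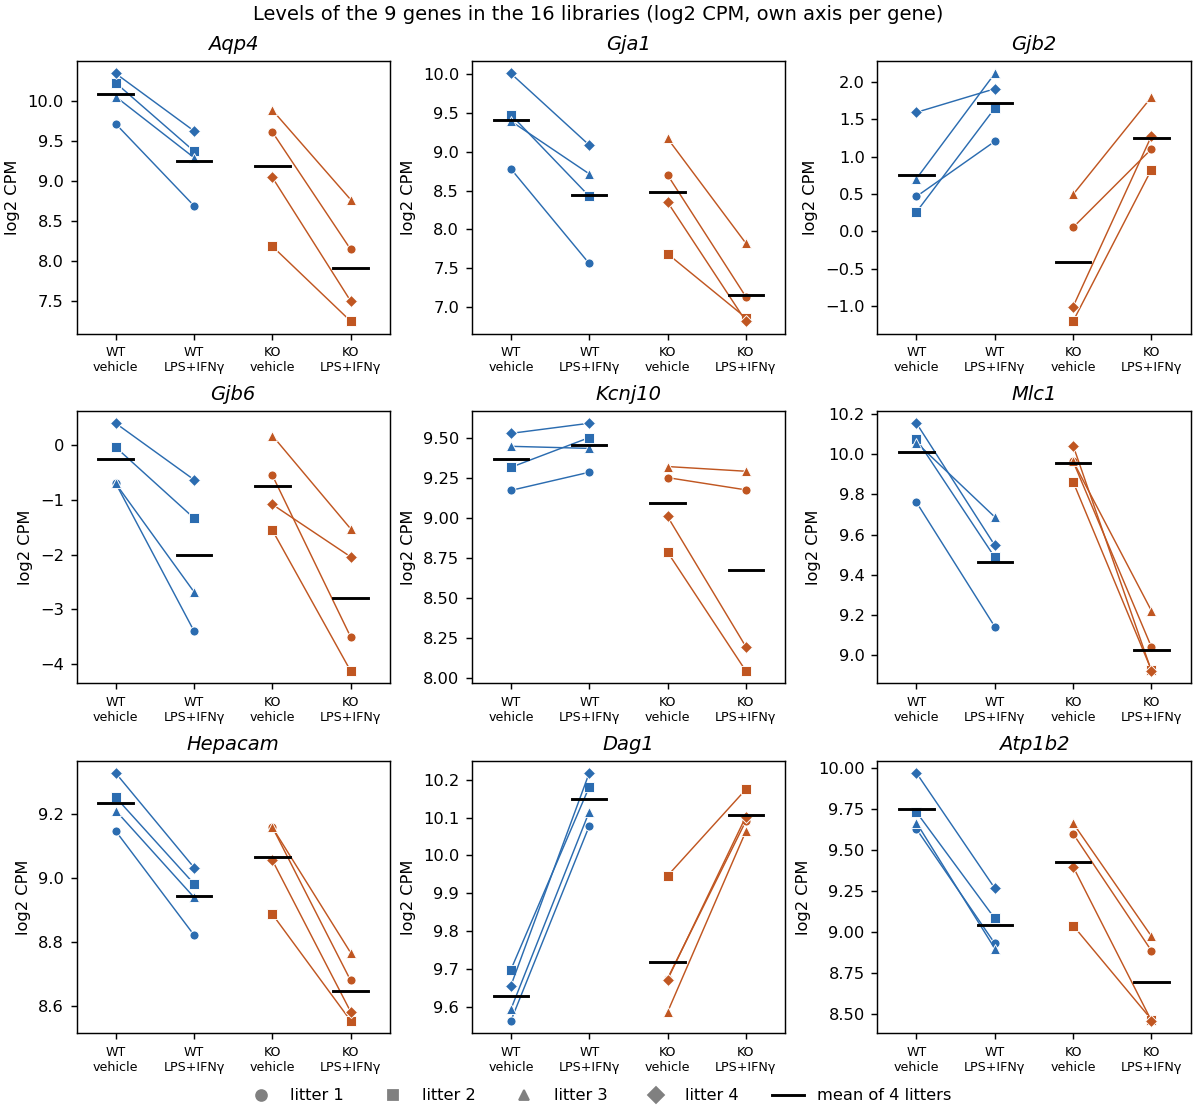
Log2 CPM of each gene in the 16 libraries, with its own vertical axis, lines joining the vehicle and LPS+IFNγ wells of a litter, a symbol per litter and black bars for the mean of 4 litters. Aqp4, Gja1, Gjb6, Mlc1, Hepacam and Atp1b2 fall in all 8 litters, Gjb2 and Dag1 rise in all 8, and Kcnj10 rises in 3 WT litters.

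Aqp4, the water channel of the endfoot (chr18:15522451-15544039, minus strand), fell in every litter. WT litters 1 to 4 read 9.71, 10.23, 10.05 and 10.34 log2 CPM in vehicle and 8.69, 9.37, 9.29 and 9.62 in LPS+IFNγ. The treated WT libraries all lay below the vehicle libraries. Nlrx1-/- litters 1 to 4 read 9.61, 8.18, 9.89 and 9.04 in vehicle and 8.15, 7.25, 8.77 and 7.50 in LPS+IFNγ, with litters 2 and 4 the lowest in both wells, so the Nlrx1-/- groups overlapped although each litter fell. The fitted log2 fold change was -0.85 ± 0.10 (SE) in WT (adjusted p = 5.28e-05) and -1.28 ± 0.10 in Nlrx1-/- cells (adjusted p = 2.53e-06), which left 55.5% and 41.1% of the vehicle level.

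Gja1 moved much as Aqp4 did. WT litters 1 to 4 read 8.78, 9.48, 9.39 and 10.01 log2 CPM in vehicle and 7.56, 8.43, 8.71 and 9.09 in LPS+IFNγ. Nlrx1-/- litters read 8.70, 7.69, 9.17 and 8.35 in vehicle and 7.14, 6.87, 7.82 and 6.82 in LPS+IFNγ. Treated and vehicle groups overlapped in both genotypes, yet each litter fell. The log2 fold change was -0.98 ± 0.12 in WT (adjusted p = 9.33e-05) and -1.33 ± 0.12 in Nlrx1-/- cells (adjusted p = 1.02e-05), leaving 50.7% and 39.8% of the vehicle level.

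Gjb6 fell from an already low level. WT litters held 19, 26, 25 and 48 reads in vehicle and 1, 12, 3 and 24 in LPS+IFNγ. Nlrx1-/- litters held 25, 10, 39 and 17 reads in vehicle and 1, 0, 10 and 6 in LPS+IFNγ, the count of 0 allowing up to 0.0996 CPM (3 reads in that library, counting error only). Every litter fell, and in both genotypes the groups overlapped on log2 CPM. The log2 fold change of -1.92 ± 0.65 in WT (adjusted p = 0.0341) was lost when any WT litter was left out (adjusted p 0.0528 to 0.120). That of -2.46 ± 0.71 in Nlrx1-/- cells (adjusted p = 0.0150) was lost without Nlrx1-/- litter 1 (adjusted p = 0.0664).

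Its neighbour Gjb2 rose. WT litters held 42, 33, 74 and 111 reads in vehicle and 63, 102, 120 and 138 in LPS+IFNγ, and Nlrx1-/- litters held 36, 14, 50 and 19 in vehicle and 71, 48, 124 and 81 in LPS+IFNγ. On log2 CPM the Nlrx1-/- groups did not overlap and the WT groups did, since WT litter 4 started at 1.59. The log2 fold change was 0.97 ± 0.30 in WT (1.96-fold, adjusted p = 0.0223) and 1.705 ± 0.31 in Nlrx1-/- cells (3.26-fold, adjusted p = 0.00112). Without WT litter 2 or 3 the WT call was lost (adjusted p = 0.0977 and 0.109). Gjb2 stayed at 3.51 TPM or less in every library, so its rise did not change the order in which Cx43 is by far the most abundant of these 3 connexins.

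Kcnj10, which encodes Kir4.1, the channel through which astrocytes take up potassium (chr1:172168765-172201652, plus strand), passed the test in Nlrx1-/- cells and not in WT cells; the difference between the genotypes was tested on its own and is given further on. WT litters 1 to 4 read 9.17, 9.32, 9.45 and 9.53 log2 CPM in vehicle and 9.29, 9.51, 9.44 and 9.60 in LPS+IFNγ. The WT log2 fold change was 0.077 ± 0.12 (adjusted p = 0.641), and it became -0.085 when no TMM factors (trimmed mean scaling between libraries) were used, a scaling that moved the median of all genes from -0.02 to -0.18. Nlrx1-/- litters read 9.26, 8.79, 9.32 and 9.01 in vehicle and 9.18, 8.04, 9.29 and 8.20 in LPS+IFNγ. Litters 2 and 4 dropped by 0.74 and 0.82 and litters 1 and 3 by 0.08 and 0.03, so the Nlrx1-/- response was uneven. The Nlrx1-/- log2 fold change was -0.43 ± 0.12 (adjusted p = 0.0142), and without litter 2 or litter 4 it was -0.32 and -0.29 (adjusted p = 0.0712 and 0.0734).

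Mlc1 (chr15:88840084-88863356, minus strand) fell in every litter with no overlap between treated and vehicle libraries in either genotype. WT litters 1 to 4 read 9.76, 10.07, 10.06 and 10.15 log2 CPM in vehicle and 9.14, 9.49, 9.69 and 9.55 in LPS+IFNγ. Nlrx1-/- litters read 9.96, 9.86, 9.96 and 10.04 in vehicle and 9.04, 8.93, 9.22 and 8.92 in LPS+IFNγ, so vehicle levels of the 2 genotypes interleaved while 3 of 4 treated Nlrx1-/- libraries lay below all treated WT libraries. The log2 fold change was -0.56 ± 0.07 in WT (adjusted p = 7.32e-05) and -0.95 ± 0.07 in Nlrx1-/- cells (adjusted p = 1.41e-06), leaving 68.0% and 51.9%.

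Hepacam, which encodes GlialCAM (chr9:37278621-37299291, plus strand), fell less but evenly. Its WT libraries read 9.15 to 9.33 log2 CPM in vehicle and 8.82 to 9.03 in LPS+IFNγ, and its Nlrx1-/- libraries 8.89 to 9.16 and 8.55 to 8.77, without overlap in either genotype. The log2 fold change was -0.30 ± 0.04 in WT (adjusted p = 0.000257) and -0.43 ± 0.04 in Nlrx1-/- cells (adjusted p = 1.72e-05). Atp1b2 (chr11:69487651-69496851, minus strand) fell by nearly the same amount in both genotypes. It went from 9.63 to 9.97 in WT vehicle to 8.90 to 9.27 with LPS+IFNγ, and from 9.04 to 9.66 in Nlrx1-/- vehicle to 8.46 to 8.97, again without overlap. Its log2 fold change was -0.71 ± 0.06 in WT (adjusted p = 4.29e-06) and -0.74 ± 0.06 in Nlrx1-/- cells (adjusted p = 2.86e-06).

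Dag1, which encodes dystroglycan (chr9:108081833-108152333, minus strand), went the other way from most of the endfoot genes. WT litters 1 to 4 read 9.56, 9.70, 9.59 and 9.66 log2 CPM in vehicle and 10.08, 10.18, 10.12 and 10.22 in LPS+IFNγ. Nlrx1-/- litters read 9.67, 9.95, 9.59 and 9.67 in vehicle and 10.09, 10.17, 10.06 and 10.10 in LPS+IFNγ. No treated library met a vehicle library of its genotype. The log2 fold change was 0.51 ± 0.05 in WT (1.42-fold, adjusted p = 1.44e-05) and 0.37 ± 0.05 in Nlrx1-/- cells (1.295-fold, adjusted p = 0.000107). Dag1 also had the smallest spread of the 9 between WT vehicle litters, an SD of 0.06 log2 CPM, against 0.50 for Gja1 and 0.59 for Gjb2.

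Counted over the 9, treated and vehicle libraries did not overlap for 4 lower genes (Aqp4, Mlc1, Hepacam and Atp1b2) and 1 higher gene (Dag1) in WT, where 17.6% and 20.2% of all 16707 genes did so. In Nlrx1-/- cells it was 3 lower (Mlc1, Hepacam and Atp1b2) and 2 higher (Gjb2 and Dag1), where 14.4% and 17.6% of all genes did so.

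Whether the response differed between genotypes was tested as an interaction in the same fit. No member was called, as were 0 of the 16062 genes (0%). At an unadjusted p under 0.05 the responses of 3 members, Mlc1, Aqp4 and Kcnj10, were lower in Nlrx1-/- cells and none was higher, beside 9.48% of all genes lower and 5.90% higher. The difference between responses (Nlrx1-/- minus WT) was -0.39 ± 0.09 log2 for Mlc1 (SE, unadjusted p = 0.00178, edgeR adjusted p = 0.217). It was -0.43 ± 0.14 for Aqp4 (adjusted p = 0.223) and -0.51 ± 0.17 for Kcnj10 (adjusted p = 0.233). DESeq2 on the same design called 296 genes, Mlc1 the only member among them (adjusted p = 0.0220). Without Nlrx1-/- litter 3 edgeR called 317 genes, again with Mlc1 alone of the 9 (adjusted p = 0.0413). For the others the difference was -0.35 for Gja1, 0.73 for Gjb2, -0.54 for Gjb6, -0.13 for Hepacam, -0.14 for Dag1 and -0.03 for Atp1b2.

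Litter by litter, 4 genes had all 4 Nlrx1-/- responses below all 4 WT responses on log2 CPM, and none had them all above, where 5.25% of all genes lay below and 3.06% above. Mlc1 fell by 0.62, 0.59, 0.37 and 0.61 in WT litters 1 to 4 and by 0.92, 0.94, 0.74 and 1.12 in Nlrx1-/- litters. Hepacam fell by 0.27 to 0.32 in WT and by 0.33 to 0.48 in Nlrx1-/- litters. Dag1, which rose in every litter, gained 0.48 to 0.56 in WT and 0.23 to 0.48 in Nlrx1-/- litters. Kcnj10 moved by -0.013 to 0.19 in WT and by -0.82 to -0.029 in Nlrx1-/- litters. For Hepacam, Dag1 and Kcnj10 the ranges of the genotypes nearly touched. Responses of Aqp4, Gja1, Gjb2, Gjb6 and Atp1b2 overlapped between genotypes.

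**Figure D3:**
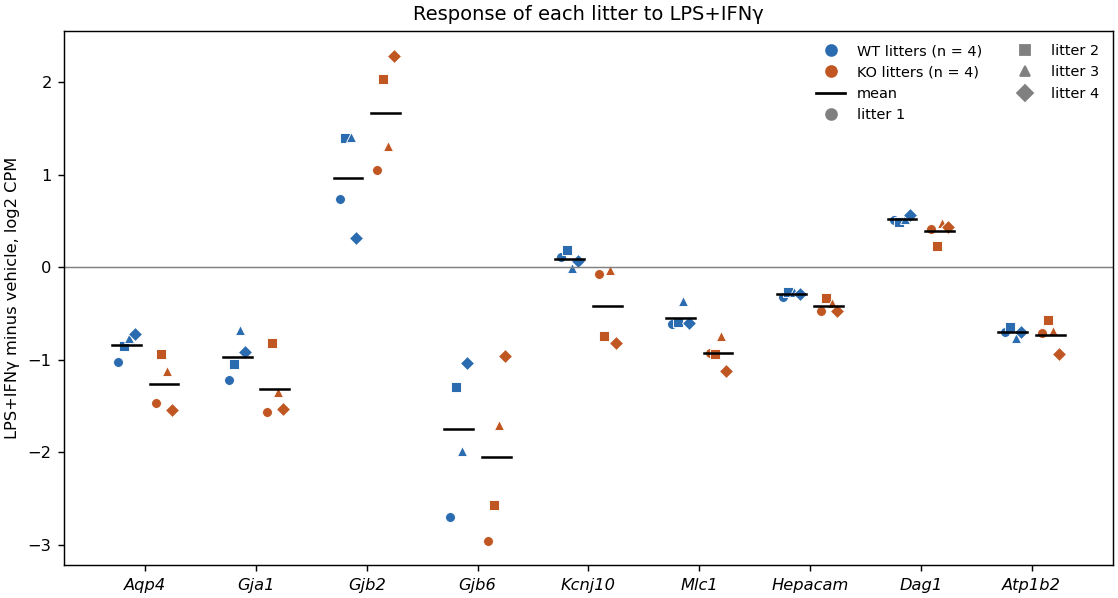
LPS+IFNγ minus vehicle on log2 CPM for each litter, with WT in blue and Nlrx1-/- (KO) in orange. Each symbol marks a litter number and black bars the mean of 4 litters. The labels do not pair equal numbers across genotypes. The Nlrx1-/- responses lie below the WT responses without overlap for Kcnj10, Mlc1, Hepacam and Dag1.

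Nlrx1-/- and WT cells were then compared under each treatment, over litters, since a litter has a single genotype. In vehicle 0 of the 9 passed the test, as did 0% of all genes (0 of 16062). At an unadjusted p under 0.05, 5 members were lower (Aqp4, Gja1, Gjb2, Hepacam and Atp1b2) and none higher, beside 8.57% of all genes lower and 11.0% higher. The estimates were -0.80 ± 0.35 for Aqp4 (SE, adjusted p = 0.223), -0.91 ± 0.35 for Gja1 (adjusted p = 0.183) and -1.17 ± 0.41 for Gjb2 (adjusted p = 0.163). Without Nlrx1-/- litter 3, Gja1 and Gjb2 were called (adjusted p = 0.0471 and 0.0385), with 1310 genes in all. Mlc1, at -0.07 ± 0.11, and Dag1, at 0.09 ± 0.07, differed least. Levels of all 9 genes overlapped between the genotypes in vehicle, where 9.45% of all genes did not. The DESeq2 fit called 735 genes in vehicle and none of the 9.

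With LPS+IFNγ, 4 of the 9 were called lower in Nlrx1-/- than in WT cells and 0 higher, against 2.38% and 2.65% of all genes. Aqp4 stood at 41.9% of the WT level (log2 fold change -1.26 ± 0.35, adjusted p = 0.04999, just under the threshold). Gja1 stood at 39.7% (-1.33 ± 0.36, adjusted p = 0.0472), Mlc1 at 72.7% (-0.46 ± 0.11, adjusted p = 0.0411) and Hepacam at 80.6% (-0.31 ± 0.08, adjusted p = 0.0413). Only Hepacam had treated Nlrx1-/- libraries (8.55 to 8.77 log2 CPM) wholly below the treated WT libraries (8.82 to 9.03), where 6.23% of all genes were so separated and 7.09% the other way. Of those that did not pass, Kcnj10 was at -0.69 ± 0.23 (adjusted p = 0.0733; called by DESeq2, adjusted p = 0.0238, and by limma on the deposited log2 CPM, adjusted p = 0.0453), Atp1b2 at -0.35 ± 0.15 (adjusted p = 0.135), Gjb6 at -1.08 ± 0.85, Gjb2 at -0.48 ± 0.40 and Dag1 at -0.05 ± 0.07.

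These 4 calls depended on which litters and settings were used. Aqp4 was no longer called without TMM factors, without the filter on low counts or without length offsets (adjusted p = 0.0535, 0.0504 and 0.0501), and limma-voom called only Mlc1 and Hepacam (adjusted p = 0.0482 for both). With WT litter 2, 3 or 4, or Nlrx1-/- litter 1, 2 or 4, left out, none of the 9 was called, and the count over all genes went from 809 to between 1 and 220. Without WT litter 1 the same 4 were called, with 1405 genes, and without Nlrx1-/- litter 3 these 4 with Kcnj10 and Atp1b2, with 3333 genes. The estimates kept their sign throughout, from -1.07 to -1.62 for Aqp4 and from -0.39 to -0.56 for Mlc1. With only the LPS+IFNγ libraries in the fit edgeR called 0 genes (adjusted p = 0.0758 for Aqp4 and Mlc1, and 0.0746 for Gja1 and Hepacam). In the fit with 4 groups, the 2 wells of a litter enter as separate libraries, although they are not independent.

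The Nlrx1-/- litters differed among themselves. In vehicle, litters 2 and 4 held the lowest 2 values for 7 of the 9 genes, and with LPS+IFNγ for 6 of the 9. How many of all genes share this order was not counted, so it is not read as a trait of these 9. The same litters had the lowest summed oligodendrocyte markers, at 216 and 320 TPM in vehicle (496 and 709 in litters 1 and 3) and 148 and 155 TPM with LPS+IFNγ (236 and 366 in litters 1 and 3). No oligodendrocyte marker was called between genotypes in edgeR, and with LPS+IFNγ 7 of the 9 tested were lower at an unadjusted p under 0.05, where 14.9% of all genes were. Of the 8 precursor markers, 1 was called lower with LPS+IFNγ, where 2.38% of all genes were. It was Pdgfra (log2 fold change -0.835 ± 0.19, edgeR adjusted p = 0.0396). At an unadjusted p under 0.05, 4 of these 8 were lower and 0 higher. Residual Nlrx1 was also highest in litters 2 and 4 in vehicle, at 2.96 and 2.85 log2 CPM against 2.24 and 1.84. That order did not hold with LPS+IFNγ, where litters 1 to 4 read 2.19, 2.09, 1.09 and 2.23 and litter 1 lay above litter 2. Ependymal markers, which summed to 119 to 295 TPM over the libraries, were also lower in Nlrx1-/- cells with LPS+IFNγ, 2 of the 9 tested being called, where 2.38% of all genes were. The part of these values in the differences between genotypes was not tested. The 12 astrocyte markers, none of which is among the 9 genes, ran the same way by count: with LPS+IFNγ 10 of 12 had a lower estimate in Nlrx1-/- cells, 6 at an unadjusted p under 0.05 and 2 called, with a median of -0.51 log2 beside -0.48 for the 9 genes and -0.01 for all genes. In the interaction 8 of the 12 were lower at an unadjusted p under 0.05, where 9.48% of all genes were, and 0 were called in edgeR. Their summed level, 8748 to 9768 TPM in Nlrx1-/- vehicle libraries, was carried largely by Fabp7, at a mean of 5183 TPM in that group. In WT vehicle libraries Fabp7 had a mean of 3408 TPM, and it was not called between genotypes in vehicle (edgeR adjusted p = 0.137).

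**Figure D4:**
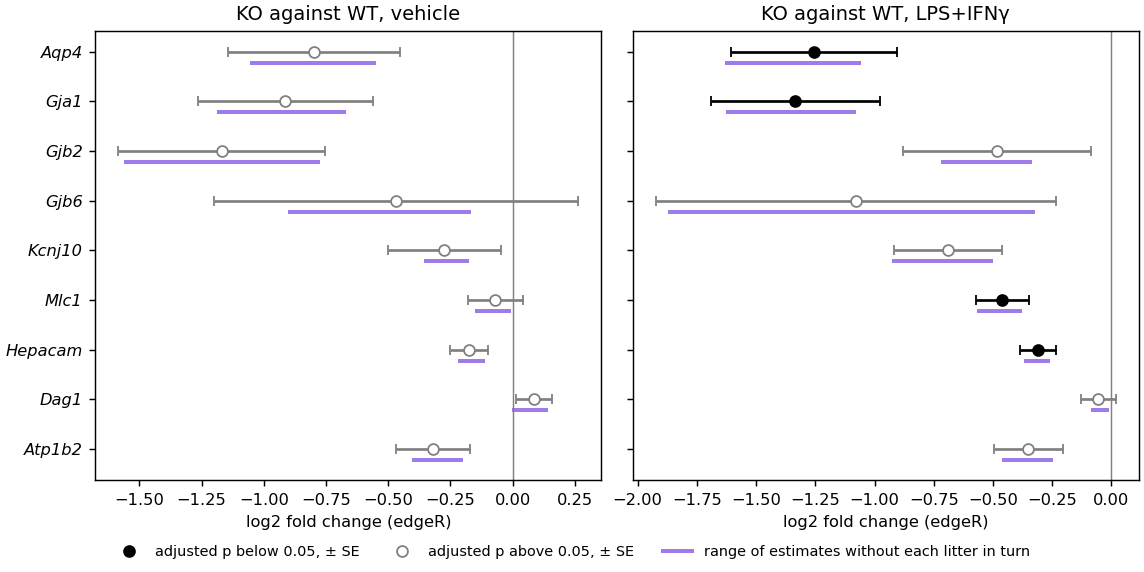
Log2 fold change of Nlrx1-/- (KO) against WT from edgeR with its SE, in vehicle (left) and LPS+IFNγ (right), filled where the adjusted p is below 0.05, with purple bars for the range of estimates when each litter in turn is left out. Aqp4, Gja1, Mlc1 and Hepacam are filled on the right, no gene on the left, and the purple bars stay on the same side of 0 for each gene.

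The genes around these 9 were followed in lists of their families and partners, which also count the 9 where they belong. Their counts stand beside 23.7% of all genes called higher and 20.2% lower in WT, 25.3% and 24.2% in Nlrx1-/- cells, and 2.65% and 2.38% between genotypes with LPS+IFNγ. Of 23 connexins and pannexins, 12 were detected well enough to test, and 4 rose and 4 fell in WT. Beside the 3 connexins above, Gja5 (Cx40) rose 1.58 ± 0.31 log2 and Gjd2 (Cx36, the neuronal connexin) fell 2.52 ± 0.51, at means of 1.02 and 0.984 TPM. Gjc3 (Cx29, an oligodendrocyte connexin) fell 1.48 ± 0.25 in WT and stood lower in Nlrx1-/- than in WT cells under LPS+IFNγ (-1.48 ± 0.38, adjusted p = 0.0450), in company with the oligodendrocyte markers given above. Of 12 aquaporins 5 were testable and 2 fell in WT, Aqp4 and Aqp9 (-0.59 ± 0.22, adjusted p = 0.0489, named after its values were seen). Aqp4 at a mean of 286 TPM was far above the next aquaporin, Aqp11, at 6.23 TPM.

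Of 29 inward rectifier and tandem-pore potassium channels, 17 were testable, and 2 rose and 6 fell in WT and 3 rose and 5 fell in Nlrx1-/- cells. Among the tandem-pore (K2P) channels, Kcnk10 rose 1.81 ± 0.23 in WT and 1.93 ± 0.24 in Nlrx1-/- cells. Its mean over all 16 libraries was 3.02 TPM. Kcnk13 fell 1.81 ± 0.30 and 1.93 ± 0.30. Kcnj16, whose product Kir5.1 joins Kir4.1 in heteromeric channels, was not called in either genotype (0.20 ± 0.08 and 0.08 ± 0.08), and it is named here after its values were seen. Of 15 sodium pump subunits and FXYD regulators, 9 were testable, and 2 rose and 3 fell in WT and 2 rose and 5 fell in Nlrx1-/- cells. Atp1b1, the β1 subunit, rose 0.39 ± 0.08 and 0.57 ± 0.08, opposite to Atp1b2, and Fxyd6 fell 0.92 ± 0.08 and 1.28 ± 0.08. Fxyd6 was also called lower in Nlrx1-/- cells with LPS+IFNγ (-0.50 ± 0.13, adjusted p = 0.0450).

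Of 29 genes of the dystrophin complex and its matrix ligands, 27 were testable; 4 rose and 8 fell in WT and 8 rose and 9 fell in Nlrx1-/- cells. Sgcd, a sarcoglycan, fell 1.85 ± 0.19 in WT and 1.76 ± 0.19 in Nlrx1-/- cells, at 0.748 TPM, and Lama2, the laminin α2 chain that dystroglycan binds, fell 1.39 ± 0.09 and 1.13 ± 0.09. Between genotypes under LPS+IFNγ the laminin chains Lamb1 (1.07 ± 0.21, adjusted p = 0.0396) and Lama1 (0.81 ± 0.22, adjusted p = 0.0489) were higher and Lamb2 lower (-0.37 ± 0.08, adjusted p = 0.0396) in Nlrx1-/- cells. Of 18 enzymes that glycosylate dystroglycan, 16 were testable, of which 6 rose and 2 fell in WT and 3 rose and 5 fell in Nlrx1-/- cells. Gmppb, which makes GDP-mannose, rose 0.90 ± 0.11 and 0.92 ± 0.11, and Rxylt1, a xylosyltransferase of the laminin-binding glycan, rose 0.44 ± 0.09 and 0.60 ± 0.09 and was higher in Nlrx1-/- cells under LPS+IFNγ (0.35 ± 0.09, adjusted p = 0.0448).

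Of 24 genes of the MLC1-GlialCAM assembly and of volume regulation, 23 were testable, with 2 up and 9 down in WT and 4 up and 12 down in Nlrx1-/- cells. Slc12a7, a potassium chloride cotransporter, rose 2.13 ± 0.07 in WT and 2.35 ± 0.07 in Nlrx1-/- cells. Gpr37, an orphan receptor known from oligodendrocytes, fell 1.28 ± 0.29 and 3.02 ± 0.32 and was lower in Nlrx1-/- cells under LPS+IFNγ (-1.84 ± 0.44, adjusted p = 0.0396). The same comparison called Ttyh1, a tweety homologue abundant in glia (-0.85 ± 0.23, adjusted p = 0.0488), lower. Of the scaffold and junction adaptor genes, listed under 16 symbols of which a pair names the same gene, all 15 were testable. In edgeR 0 rose and 7 fell in WT and 0 rose and 9 fell in Nlrx1-/- cells. At an unadjusted p under 0.05, 4 were higher and 7 lower in WT, and 1 higher and 10 lower in Nlrx1-/- cells. The share of all genes at that unadjusted level is not given here, so these counts are not read further. Magi3 fell 0.53 ± 0.07 and 0.43 ± 0.07 and Magi2 fell 0.43 ± 0.08 and 0.61 ± 0.08.

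**Figure D5:**
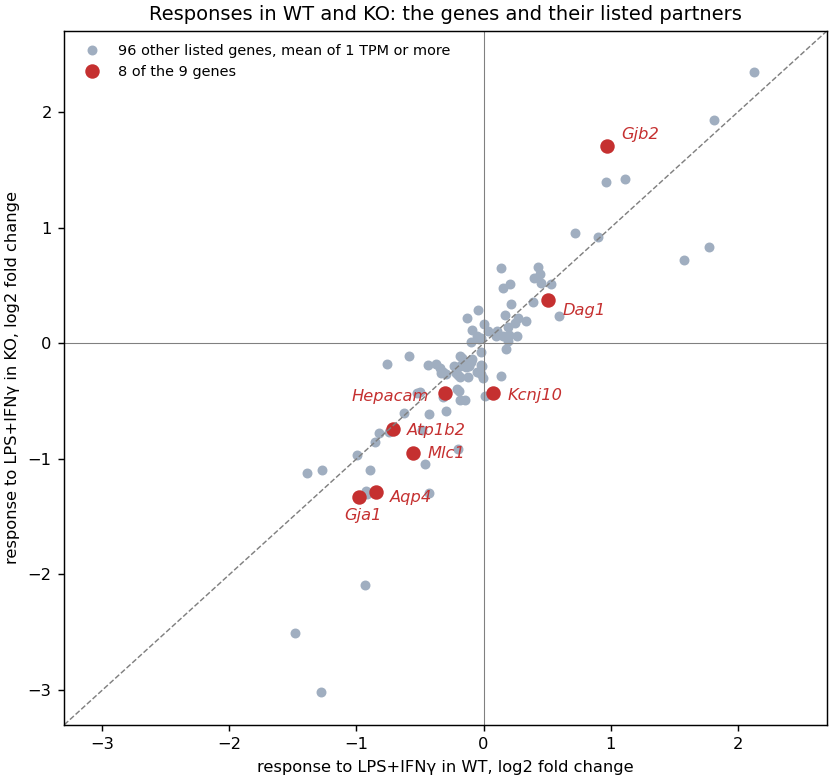
Log2 fold change with LPS+IFNγ in WT (horizontal) and Nlrx1-/- cells (vertical) for 8 of the 9 genes in red and 96 other listed genes with a mean of 1 TPM or more in grey, with the line of equal response dashed. Of the red points 7 of 8 and of the grey points 53 of 96 lie below the line, and only Kcnj10 among the red points lies with a positive WT and a negative Nlrx1-/- value; no test was run on these counts, and Gjb6, under 1 TPM, is not drawn.

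The share of the main transcript was tested in the 4 genes that had more than a single well-measured transcript, and it passed in Mlc1. The 2369-base transcript of Mlc1 made 94.8% ± 0.417 of its TPM in vehicle and 93.1% ± 0.730 with LPS+IFNγ in WT cells, and 94.5% ± 1.14 and 92.5% ± 0.955 in Nlrx1-/- cells (SD, n = 4). The rest was a 2783-base transcript. The share fell in 8 of 8 litters, by 1.02 to 3.39 percentage points (mean -1.88 ± 0.865, SD), and an exact two-sided sign-flip permutation test over the litters gave p = 0.0078125, the smallest it can give with 8. The main transcripts of Aqp4 (5156 bases, p = 0.289), Hepacam (3103 bases, p = 0.109) and Dag1 (5447 bases, p = 0.750) did not pass the same exact test. Other transcripts were not tested. Among them the 5591-base transcript of Dag1 went from 14.3% ± 0.708 to 18.4% ± 1.31 in WT cells and from 14.1% ± 2.25 to 17.8% ± 1.80 in Nlrx1-/- cells, and its 5435-base transcript from 38.5% ± 2.15 to 31.5% ± 2.40 and from 38.2% ± 6.11 to 35.8% ± 2.61 (SD, n = 4). These changes in mean share are larger than that of Mlc1. Salmon divides reads between transcripts that share sequence, so shares are estimates, and Gjb6 was left out because a library had 0 reads.

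Over the 16 libraries, the genes whose log2 CPM ran most like each member were named by Pearson's r, as a description over points that share litters and treatment. Aqp4 ran most like Padi2 (r = 0.991) and Hey1 (0.990), and Gja1 most like Cst3 (0.988) and Apoe (0.987), both abundant astrocyte transcripts. Hepacam ran most like Rftn2 (0.991) and Luzp2 (0.990), Atp1b2 most like Clip3 (0.993) and Gpr137b-ps (0.987), and Mlc1 most like Tspan14 (0.975) and C1qtnf5 (0.974). Dag1 ran much like Golim4 (0.975), Gjb2 most like Hspb8 (0.951) and Spag1 (0.946), and Gjb6 most like Slc25a34 (0.947) and Sybu (0.924). Kcnj10 ran most like Cdo1 (0.957) and Neu4 (0.954), the last of which is among the precursor markers above. Among the 9, Aqp4, Gja1, Hepacam, Mlc1 and Atp1b2 ran together (r from 0.82 to 0.97), while Dag1 ran against them (r from -0.84 to -0.63) and Gjb2 with none of them (r from -0.43 to 0.06).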

How the data were processed

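RNA of 16 libraries was measured by poly-A selected, paired-end sequencing. Per the labels and the study's methods, the authors quantified reads with Salmon 1.7.0 on GRCm39. They deposited estimated counts (expected counts) and TPM per transcript, and a log2 CPM table made with tximport length scaling, a low-count filter, TMM factors and limma 3.58.1. A linear CPM table was not used. Counts of 129698 transcripts were summed per gene symbol with RefSeq names (106430 paired; 96.7 to 97.3% of reads), giving 35293 genes. These sums were rounded and tested in edgeR 4.0.16 (R 4.3.3) with TMM, length offsets, a minimum count of 10 (filterByExpr), quasi-likelihood tests and Benjamini-Hochberg adjustment over 16062 genes at 0.05. Responses and their interaction were fitted with litter within genotype, the study's design; genotypes were compared in a fit of 4 conditions without litter terms. Log2 CPM gave levels per library and responses per litter, and TPM the levels between genes and transcript shares.

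The labels give replicate numbers, and the study's methods treat litter as the biological replicate within a genotype. Wells of equal number within a genotype were therefore taken as a litter. Their deviations from the group means correlated at 0.0733 to 0.355 against -0.120 to -0.0212 with other litters (medians). The labels do not pair equal numbers across genotypes, and deviations of such litters correlated at -0.0616 to 0.165. The paper states that the pups of both genotypes shared a day of birth. Depth was 27259420 to 43752903 reads; PCR duplicates carry no molecular identifiers, so floors cover counting error only. Alternatives were DESeq2 1.42.0, limma-voom, limma on the deposited log2 CPM, other scaling, filters and thresholds, and each litter left out. The edgeR fits were also run on simulated counts drawn without litter effects. Correlated wells of a litter were therefore not covered, and the outcome is not given here. Members and gene lists were chosen with earlier results of these data known. Named genes are all members, from each list the 2 other genes with the largest WT response among those called, moving the same way in all 8 litters and at an arithmetic mean of 1 CPM or more, up to 3 called between genotypes, and for each member the 2 most similar genes. A few genes that this rule names are not reported here. Postnatal day 6 and water follow the labels.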

Additional observations from a re-analysis of the deposited data

Results flagged for a closer look

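In WT litter 3 the Mlc1 response to LPS+IFNγ was -0.37 on log2 CPM, while the other WT litters lay between -0.62 and -0.59. Its gap to the nearest litter was 0.876 of the whole range, above the 95% limit of Dixon's test for 4 values. This was the only such value among 54 groups of 4 tested, where chance alone marks about 1 in 20. The WT litter 3 response was still above all 4 Nlrx1-/- responses, and Mlc1 was called in WT with or without that litter.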

How the results depend on the processing

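The responses within genotypes were the steadiest: 8 and 9 members were called in WT and Nlrx1-/- cells, 7053 and 7942 genes in all. With no replicate block 4 members were called in WT (Mlc1, Hepacam, Dag1 and Atp1b2; adjusted p = 0.0772 for Aqp4 and 0.0505 for Gja1), and Kcnj10 was lost in Nlrx1-/- cells (adjusted p = 0.253). Without TMM factors the split of higher and lower calls went from 3813 and 3240 to 2432 and 5383 in WT, and from 4056 and 3886 to 2656 and 5887 in Nlrx1-/- cells. For the interaction 0 members and 0 genes were called by edgeR. DESeq2 called 1 member and 296 genes, no filter on low counts gave 1 gene, and leaving out a litter gave 0 to 1 members and 0 to 317 genes. In vehicle edgeR called 0 members and 0 genes between genotypes. DESeq2 called 735 genes, and limma on the deposited log2 CPM, limma-voom, no TMM factors, no filter and the replicate block 1 gene each. Leaving out a litter gave 0 to 2 members and 0 to 1310 genes. With LPS+IFNγ 4 members and 809 genes were called. A threshold of 0.01 left 0 members and 3 genes, limma-voom 2 members and 386 genes, and only that treatment's libraries 0 members and 0 genes. DESeq2 called 2438 genes, limma on the deposited values 1471 and the fit with the replicate block 2207; each called 5 members, Kcnj10 being added (adjusted p = 0.0395 with the block). Leaving out a litter gave 0 to 6 members and 1 to 3333 genes. No other call of a member changed with the block. Values that changed sign were small: Kcnj10 in WT (-0.085 without TMM factors, and -0.13 as the litter response on log2(TPM + 1)) and the Atp1b2 interaction (-0.081 to 0.044 over litters left out, above 0 without Nlrx1-/- litter 4). The fits without TMM factors and with a single treatment's libraries were added after the data were seen. The causes were not tested. Gjb6 rested on 0 to 48 reads per library.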
